A study of Mus musculus with 38 samples.

Results

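The H3K27ac peaks described here were those that appeared in epidermal stem cells (EpdSCs) after 1 week of SOX9 induction and in no other profile of the same mark. They were selected on measured values, that is on the peak calls themselves: a peak of the W1 list was a member when it shared not a single base with a peak of the D0, W2, W6 or W12 list. The rule left 6759 of the 32544 W1 peaks, or 20.8% (95% confidence interval 20.3 to 21.2%), out of 156394 peaks in the 5 lists together. They are called W1-only peaks below. H3K27ac strength and the absence from other lists are therefore given as a description, and comparisons rest on measures the rule did not use: H3K4me1, the cultures, the distance to start sites and the base sequence.

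Cells came from male *Krt14-rtTA;TRE-Sox9* mice (K14rtTA; TRE-myc-Sox9 in the labels), in which doxycycline (DOX) switches on MYC-tagged SOX9 wherever the *Krt14* promoter drives the transactivator, so that the uninduced D0 animals carried both transgenes too. DOX was injected at postnatal day 21 and continued in the feed for 1, 2 or 6 weeks (W1, W2 and W6), and EpdSCs were sorted from back skin as CD49f-high, CD34-negative and Ly6A-high cells lacking CD31, CD45, CD117 and CD140a. The W12 cells came from newborn skin grafted onto Nude hosts that were given DOX after healing, so that time and grafting cannot be told apart at W12. In addition, newborn EpdSCs in culture carried *Krt14-rtTA* and 1 of 3 inducible forms of SOX9: wild type (WT), ΔHMG without the part that binds DNA, or ΔTA without the part that activates transcription. They were profiled for H3K4me1 without DOX (WT) and with it (all 3 forms).

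H3K4me1 marks enhancers that are primed as well as active ones, whereas acetylation of lysine 27 on the same histone marks the enhancers and promoters in use. Acetylation can be gained and lost at an enhancer that keeps its H3K4me1. SOX9, an HMG-box factor that specifies hair follicle stem cells, can bind its sites in closed chromatin and is normally off in the epidermis, whose identity rests on factors such as p63, GATA3, AP1 and GRHL.

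Both marks were measured by MINT-ChIP, which barcodes the chromatin of each sample and precipitates the pool. Each W1 profile drew on 2 libraries, a high and a low nuclease digest, each holding 2 replicates. The deposited lists pool all of these, so no spread between replicates could be had, no p-value was computed, and all intervals cover counting error only. By the labels, D0 had the same layout in libraries of its own, and the W6 replicates had separate libraries. A W2 replicate shared its libraries with the W12 replicates. Time and library pool thus cannot be told apart at W1. The genome-wide background pileup, which rises with the number of reads and can be recovered from the fold enrichments, was 0.299 at W1 against 0.412 to 0.677 at the other times, which made W1 the shallowest H3K27ac list. At the genes that define the sorted basal cells, W1 peaks numbered 7 at *Krt5*, 2 at *Krt14* and 8 at *Itga6*. Over 34 marker genes of fibroblasts, endothelium, immune cells, melanocytes, adipocytes and muscle, 13 genes had a W1 peak and 10 had a W1-only peak, and 13 of the 33 W1 peaks there were W1-only. This was 39.4% (22.9 to 57.9%), above the 20.8% of the whole W1 list. The part of such cells in the results was not tested, and peak strength was not matched in this comparison.

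The sequences below run 100 bases to each side of the summit of 7 W1-only peaks, plus strand of GRCm38. They show the strongest member, the strongest at a coding start site, the strongest outside all H3K4me1, the 2 strongest whose windows held a SOX and an AP1 word, and the strongest at *Lgr6* and at *Tgfb2*. Capitals mark words of SOX (ACAATG or ACAAAG), AP1 (TGANTCA), NFI (TTGGCA) and E-box (CAGCTG) factors on either strand, where adjoining words run together.
Intron of *Diaph3*, chr14:86681154-86681354: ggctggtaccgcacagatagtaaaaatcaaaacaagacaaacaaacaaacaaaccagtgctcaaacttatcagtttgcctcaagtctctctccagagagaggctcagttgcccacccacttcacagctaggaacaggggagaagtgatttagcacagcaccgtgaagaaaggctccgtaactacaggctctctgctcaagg
Start site of *Adh6a*, chr3:138313041-138313241: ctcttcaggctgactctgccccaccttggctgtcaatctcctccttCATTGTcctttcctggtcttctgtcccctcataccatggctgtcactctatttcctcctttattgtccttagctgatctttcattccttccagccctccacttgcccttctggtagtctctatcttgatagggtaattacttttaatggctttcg
Intron of *Higd1c*, chr15:100370160-100370360: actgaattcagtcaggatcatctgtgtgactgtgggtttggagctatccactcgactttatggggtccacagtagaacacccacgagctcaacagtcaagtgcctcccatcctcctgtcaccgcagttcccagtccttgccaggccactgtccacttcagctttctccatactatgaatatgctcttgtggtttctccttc
Intron of *Zbtb20*, chr16:43221921-43222121: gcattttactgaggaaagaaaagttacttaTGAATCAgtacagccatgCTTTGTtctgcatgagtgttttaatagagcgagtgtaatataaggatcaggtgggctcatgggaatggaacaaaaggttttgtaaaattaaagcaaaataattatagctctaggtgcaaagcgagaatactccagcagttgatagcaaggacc
Intron of *Gm20627*, chr3:96255842-96256042: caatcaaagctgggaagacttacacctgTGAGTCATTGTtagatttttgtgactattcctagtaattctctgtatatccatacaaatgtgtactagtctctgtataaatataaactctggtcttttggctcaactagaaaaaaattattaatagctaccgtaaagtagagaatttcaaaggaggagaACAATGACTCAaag
Intron of *Lgr6*, chr1:135104056-135104256: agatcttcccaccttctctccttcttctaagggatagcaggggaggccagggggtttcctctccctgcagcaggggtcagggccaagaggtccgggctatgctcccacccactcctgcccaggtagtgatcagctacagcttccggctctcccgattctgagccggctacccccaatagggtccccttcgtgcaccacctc
Intron of *Tgfb2*, chr1:186641524-186641724: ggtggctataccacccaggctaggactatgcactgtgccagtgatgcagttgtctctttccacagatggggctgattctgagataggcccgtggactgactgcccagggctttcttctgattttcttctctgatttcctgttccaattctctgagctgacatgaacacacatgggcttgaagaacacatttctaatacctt
The *Zbtb20* window held TGAATCA starting at its base 31 and CTTTGT at base 49. The *Gm20627* window, near the histone gene *Hist2h4*, held 2 copies of each kind, TGAGTCA at base 29 overlapping CATTGT at base 34, and ACAATG at base 188 overlapping TGACTCA at base 192. The *Adh6a* window held a single SOX word, CATTGT at base 47, and the other 4 windows held none of these words.

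W1-only peaks were weak and narrow among the peaks of their list. Their median fold enrichment over background, as the authors give it, was 3.85 (quartiles 3.08 and 4.62). Their folds ran from 2.94 to 9.24, whereas the other W1 peaks had a median of 5.39 and reached 41.6. Their median −log10 q was 2.40 against 4.75, and their median width was 404 bp against 766 bp. The 10541 W1 peaks present in all 5 lists stood further off, with a median fold of 7.70 and a median width of 1193 bp. Peaks called at a single time point were weaker than the rest of their list at the other times as well. The median folds were 4.02 for D0-only, 4.21 for W2-only, 4.77 for W6-only and 4.25 for W12-only peaks, against 7.33, 7.02, 7.16 and 6.38 for the remaining peaks of these lists.

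The fold enrichments could be read as numbers of piled-up reads for 5755 of the W1-only peaks (85.1%), because at the genome-wide background the folds fall on even steps. Of these, 1772 were called from 3 reads, 2253 from 4 reads and 1071 from 5 reads, together 88.5%. Among the other W1 peaks on such steps, 37.8% had 3 to 5 reads. The share of W1 peaks that were W1-only fell from 54.7% at 3 reads (95% confidence interval 53.0 to 56.5%) to 20.6% at 5 reads and 5.50% at 7 reads, and none of the 4049 peaks with 12 or more reads was W1-only. In 4 equal groups of the W1 list by the authors' score, the W1-only share went from 48.4% in the weakest to 26.5%, 7.74% and 0.406%, the last being 33 peaks. A pileup of 3 reads at the depth of W1 would scale to 5.03 for D0, 4.27 for W2, 6.80 for W6 and 4.13 for W12, where the smallest pileups called were 4, 4, 5 and 4. Whether the members reflect a passing gain of acetylation or calls close to the threshold was not tested, since the lists pool the replicates.

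**Figure D1:**
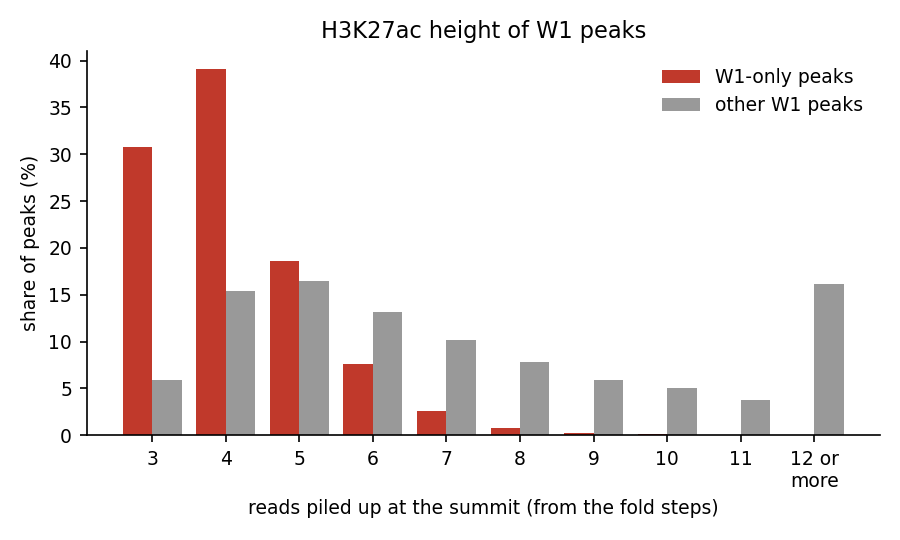
Share of peaks (y axis, %) by the number of reads piled up at the summit (x axis), as recovered from the fold steps, for the 5755 W1-only peaks and for the other W1 peaks on steps. W1-only peaks pile up at 3 to 5 reads (88.5%) and none reaches 12, whereas the other peaks extend to 12 or more.

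At the edge of the rule, 375 members (5.55%) lay within 100 bp of a peak of another list without sharing a base, and 2409 (35.6%) lay within 1000 bp. The median gap was 2533 bp. On the other side, 35 of the remaining W1 peaks shared at most 10 bp with other lists and 498 shared at most 100 bp. Members were found on all 21 chromosomes. Their share of the W1 peaks ran from 17.4% on chromosome 19 to 24.4% on chromosome 1 (22.6 to 26.3%), leaving aside chromosome Y with 5 peaks.

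The strongest members were mostly in introns. The highest score belonged to a peak of 988 bp in an intron of *Diaph3*, which encodes a formin that nucleates actin filaments, with 11 reads and a fold of 9.24, at 47322 bp from the next peak of any other list. The same fold was reached by a peak of 368 bp in an intron of *Pde6a*, a phosphodiesterase gene. Of the 10 members with the highest scores, 7 were intronic and 8 lay in H3K4me1 domains of all 5 time points. The others of this group were at *Gm973*, *Pgm5*, *A630095N17Rik*, *Zbtb20*, a repressor of transcription, and *Vav3*, at the start site of the alcohol dehydrogenase gene *Adh6a*, and in stretches between genes with *Slc30a10* and *Mamld1* as the closest coding genes. Their folds lay between 7.70 and 8.47.

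Most W1-only peaks were distal. Over 2500 bp from any annotated start site lay 5522 of them, or 81.7% (80.8 to 82.6%), where 59.0% of all W1 peaks did. Against the other W1 peaks (53.0%) the difference was 28.7 percentage points (27.6 to 29.8), and the median distances were 11984 bp and 3364 bp. The difference stood in every one of the 4 score groups, from 12.9 points in the weakest to 48.2 in the strongest. Among the peaks of other single times it stood against W6-only peaks alone, of which 71.7% were distal (8.40 to 11.6 points). D0-only peaks were distal in 83.0%, a difference of -1.34 points (-2.66 to -0.0187), and W2-only peaks in 82.6% (-2.31 to 0.545 points). W12-only peaks were distal in 86.5%, more often than the members by 4.81 points (3.74 to 5.91).

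**Figure D2:**
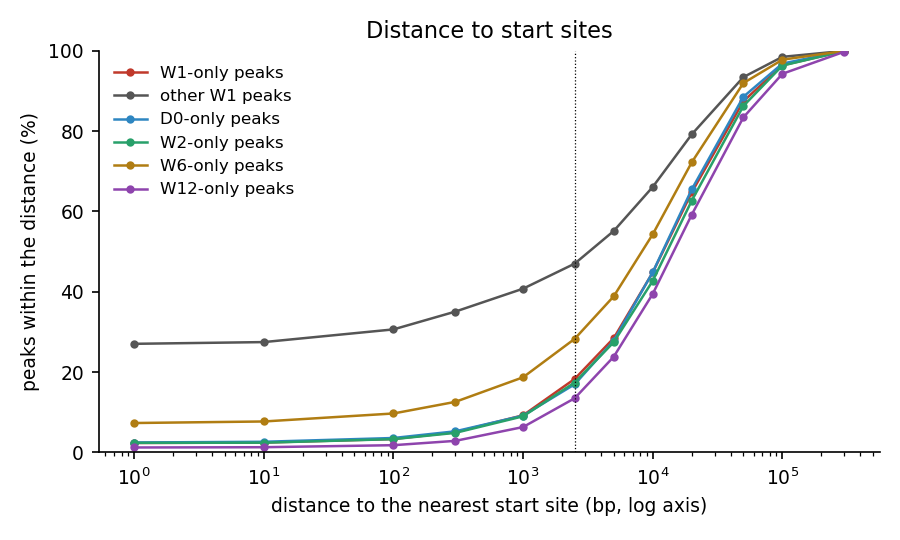
Share of peaks (y axis, %) with a start site within the distance on the x axis (bp, log axis), for W1-only peaks, the other W1 peaks and the peaks of single other time points. The dotted line marks 2500 bp, within which lay 18.3% of W1-only and 47.0% of the other W1 peaks, while the D0-only and W2-only curves run with the W1-only curve.

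By their summits, 63.1% of the members lay in introns, 6.52% in exons and 30.4% between genes. The other W1 peaks had 55.6% in introns and 17.0% in exons. Within 1000 bp of a start site of any gene lay 9.25% of members against 40.8% of the other W1 peaks, a difference of -31.5 points (-32.4 to -30.6). The 404 members within 1000 bp of a coding start site were led by *Adh6a* (fold 8.47), *C130032M10Rik* (7.70), *1190002N15Rik* (6.93), *Slc38a4*, an amino acid transporter gene (6.93), and *Sucla2*, a gene of the citric acid cycle (6.93). Of these 5, *Adh6a* and *C130032M10Rik* had the start site inside the peak.

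Most W1-only peaks sat on chromatin that carried H3K4me1 before SOX9 was induced. At D0, 5826 of them, or 86.2% (85.4 to 87.0%), touched an H3K4me1 domain, where 94.3% of all W1 peaks did. At W1 the count was 5901, or 87.3% (86.5 to 88.1%), beside 94.1% of all W1 peaks. The share was 83.6% at both W2 and W6 and 80.4% at W12, beside 93.8%, 94.6% and 91.8% of all W1 peaks. The domains covered 9.67% to 11.4% of the genome. Against the other W1 peaks the members were lower at every time, by 10.2 points at D0 (9.35 to 11.1) and by 8.58 points at W1 (7.77 to 9.43), and the gap was wider at W2 (12.9), W6 (13.9) and W12 (14.3). Among distal peaks the gap was 12.8 points at D0 (11.9 to 13.8), and it was 13.6 points when the summit itself had to lie in a domain. Within 2500 bp of a start site the summit measure turned the direction, with 88.9% of the members and 77.2% of the other W1 peaks.

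The gap was widest among the weak members. In the lowest of the 4 score groups 82.2% of members and 96.9% of the other peaks lay in a W1 domain, a difference of -14.7 points (-16.0 to -13.4). In the third group it was 98.3% against 95.9%, so that members were there higher by 2.36 points (0.939 to 3.26), and in the top group, with 33 members, the interval of the difference ran from -10.3 to 4.50 points. At D0 the differences were -15.0 points in the lowest group, -1.11 points in the third (-3.11 to 0.365) and -8.48 points in the top group (-23.7 to -1.16). These groups were not matched for distance to start sites. In the third, 82.2% of the members and 55.2% of the other W1 peaks were distal. Over all scores, the W1 difference was -12.7 points among distal peaks (-13.6 to -11.8). Within 2500 bp of a start site it was -1.79 points (-3.63 to -0.174). Whether members of the third group were also higher among distal peaks was not tested.

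Over time, 4849 members (71.7%) lay in domains of all 5 lists and 549 (8.12%) in none, against 90.3% and 0.853% of the other W1 peaks. A domain present at W1 and absent at D0 was found at 258 members, or 3.82% (3.37 to 4.30%), and the reverse at 183, or 2.71%. The other W1 peaks had 1.81% gained and 2.31% lost, a balance that turned among distal peaks, where they had 1.48% gained and 0.234% lost against 4.04% and 2.64% of the distal members. Counted only over peaks without a D0 domain, which alone can gain one, 258 of 933 members (27.7%) and 467 of 933 other W1 peaks (50.1%) had gained a domain at W1, so that the members gained less often by 22.4 points (18.0 to 26.6). Among distal peaks without a D0 domain, 27.4% of 814 members and 77.1% of 262 other W1 peaks had gained one. That difference was -49.7 points (-55.2 to -43.4). Over peaks at any distance the direction changed between the score groups, in which distance to start sites was not matched. The difference was -31.7 points in the lowest score group (-40.3 to -22.9) and -11.2 points in the second (-20.7 to -1.40). In the third it was 24.5 points (5.94 to 37.4), with 76.7% of 30 members against 52.2%. In the top group only 4 members lacked a D0 domain, and the interval ran from -13.7 to 52.8 points. The W1 list had fewer domains than the D0 list, 69439 against 87287. Over all peaks of a kind, the gain was more frequent at W1-only than at D0-only peaks by 3.21 points (2.72 to 3.72) and less frequent than at W2-only peaks, of which 7.43% had it. Both directions held over peaks without a D0 domain, with 8.75% of D0-only and 45.6% of W2-only peaks. Of the 258 gained domains 208 were still called at W2. Among members in a W1 domain, 93.1% had one at W2 (92.4 to 93.8%) and 90.1% at W12, against 98.3% and 96.8% of the other W1 peaks in a W1 domain. At most members H3K4me1 was thus still called when H3K27ac no longer was.

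Each kind of single-time peak had its highest H3K4me1 share at its own time: D0-only peaks at D0 (93.0%), W1-only peaks at W1 (87.3%), W2-only peaks at W2 (93.1%), W6-only peaks at W6 (94.8%) and W12-only peaks at W12 (47.5%). For W1-only peaks the excess of W1 over D0 was small, 87.3% against 86.2% of the same peaks. Between these times, 258 of them had gained a domain and 183 had lost one. No interval was computed for this paired difference. At W2, W1-only peaks stood 3.30 points above D0-only peaks (1.97 to 4.64) and 9.48 points below W2-only peaks (8.33 to 10.6).

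**Figure D3:**
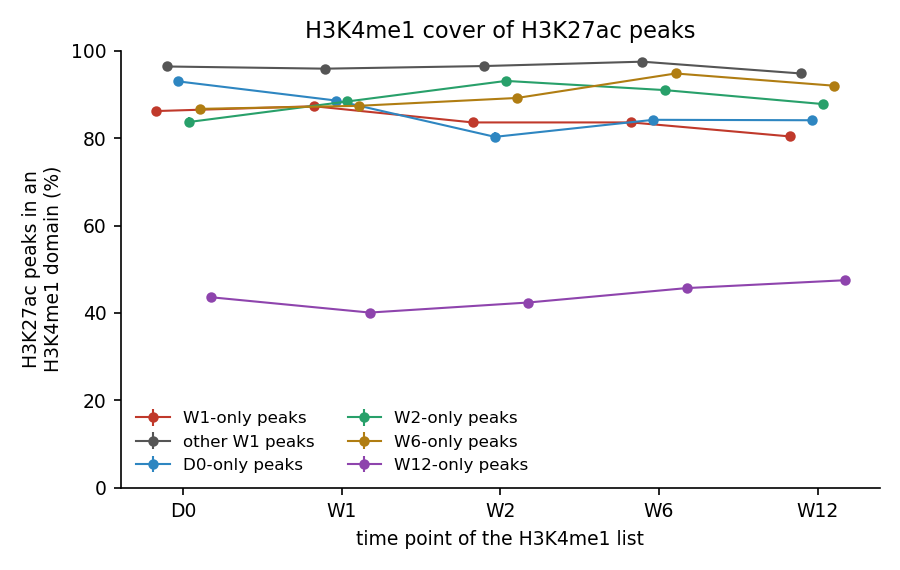
Share of H3K27ac peaks touching an H3K4me1 domain (y axis, %) at each time point (x axis). Points carry 95% exact intervals, most of them smaller than the symbol. W1-only peaks run from 86.2% at D0 to 80.4% at W12, below the other W1 peaks throughout and far above the W12-only peaks.

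The strongest members outside H3K4me1 at all times were in an intron of *Higd1c* (fold 7.35), in an intron of the noncoding gene *9530036O11Rik* with *Shh* as the closest coding gene at 325893 bp (6.05), in an exon of *Gm20186* near *Lsm8* (5.39), at the start site of *Fgd1*, an activator of Cdc42 (5.39), and in an intron of *Dnaaf3* near *Tnni3* (5.39). The strongest members with a domain at W1 and none at D0 were the *Diaph3* peak (9.24), a peak in *Zhx3* and *Plcg1*, the latter a phospholipase gene (7.70), an intron of *Rbms3* (6.93), an intron of *Zbtb20* (6.93) and an intron of *Mindy4* (6.86). Of these 5, the *Diaph3*, *Plcg1* and *Mindy4* regions were also in a culture domain with WT SOX9 and in no other culture list.

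Within the W1 domains, members often had company. Of the 5901 members in a W1 domain, 2539 (43.0%) shared it with a W1 peak that was not W1-only, 370 (6.27%) shared it with other members only, and 2992 (50.7%) were the only W1 peak of their domain. A single domain held at most 9 members.

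In cultured EpdSCs the members were covered less than the other W1 peaks. Without DOX, 2967 members, or 43.9% (42.7 to 45.1%), touched an H3K4me1 domain, beside 60.0% of all W1 peaks and 64.2% of the other W1 peaks. With WT SOX9 it was 48.3% (background 64.1%), with ΔHMG-SOX9 42.9% (background 56.0%) and with ΔTA-SOX9 41.9% (background 56.2%), the backgrounds being all W1 peaks. In no culture list were 39.6% of the members, and 29.9% were in all 4. WT SOX9 with DOX was thus the condition with the highest cover, for the members as for the other W1 peaks.

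Gains of H3K4me1 in culture were counted as a domain with DOX and none without. With WT SOX9, 800 members, or 11.8% (11.1 to 12.6%), gained a domain and 504, or 7.46% (6.84 to 8.11%), lost one. With ΔHMG-SOX9 5.34% gained a domain and with ΔTA-SOX9 6.33%. A gain with WT SOX9 that neither truncated form showed was found at 520 members (7.69%). D0-only peaks had the opposite balance, with 6.26% gained and 10.7% lost under WT SOX9. The gained share of W1-only peaks was 5.57 points above that of D0-only peaks (4.59 to 6.56) and 2.70 points below that of W2-only peaks (1.44 to 3.98). Against the other W1 peaks, of which 10.4% gained and 6.28% lost a domain, the direction depended on the denominator. Over all peaks the members were 1.48 points higher (0.643 to 2.35). Over peaks without a domain before DOX, 800 of 3792 members (21.1%) and 2670 of 9239 other W1 peaks (28.9%) gained one, and the members were lower by 7.80 points (6.19 to 9.38). On that footing D0-only peaks gained in 12.2% and W2-only peaks in 26.8%. Among distal peaks without a domain before DOX, 20.7% of the members and 34.6% of the other W1 peaks gained one. The difference there was -13.8 points (-15.8 to -11.8). Of the peaks with a domain before DOX, 17.0% of the members and 9.78% of the other W1 peaks lost it. With ΔHMG-SOX9 the members differed from D0-only peaks by -0.741 points (-1.55 to 0.0622) over all peaks and by -2.37 points (-3.86 to -0.907) over those without a domain before.

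The gains with WT SOX9 were more frequent among the stronger members. In the 4 score groups the gained share was 10.5%, 12.7%, 16.7% and 24.2% from the weakest to the strongest, the last being 8 of 33 members. The other W1 peaks stayed between 9.98% and 11.0%. The difference in the lowest group was -0.508 points (-1.85 to 0.842), in the third 6.31 points (3.52 to 9.50) and in the top group 14.3 points (2.83 to 31.1). Over peaks without a domain before DOX, the members gained in 17.5%, 24.4%, 35.1% and 53.3% of these groups, the last being 8 of 15. The difference from the other W1 peaks was then -9.99 points in the lowest group (-12.6 to -7.37), 4.55 points in the third (-0.950 to 10.4) and 25.2 points in the top group (1.94 to 47.1). Distance to start sites was not matched in these groups. In the third, 82.2% of the members and 55.2% of the other W1 peaks were distal, and in the top group 81.8% and 33.6%.

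**Figure D4:**
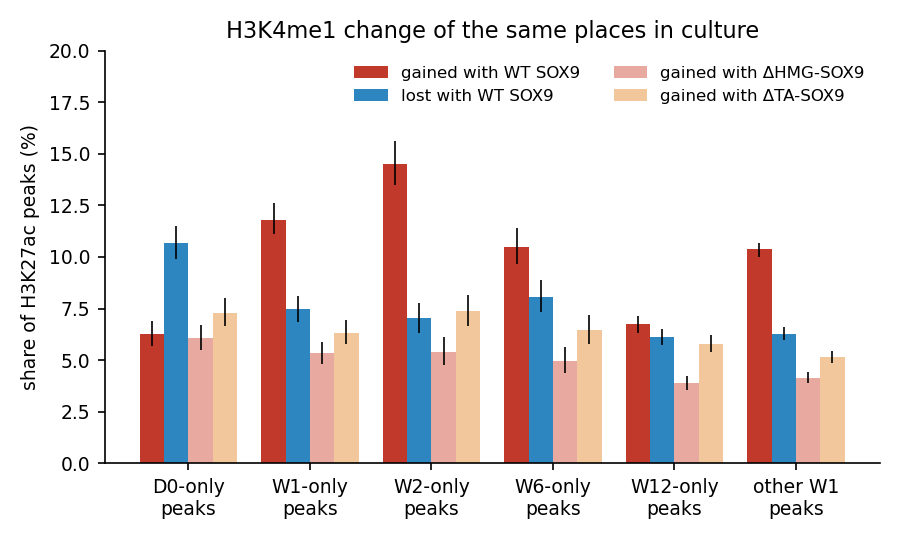
Share of H3K27ac peaks (y axis, %) whose place gained or lost an H3K4me1 domain in cultured EpdSCs with DOX against WT cells without DOX, for peaks of single time points and the other W1 peaks (x axis). Bars carry 95% exact intervals. Gains with WT SOX9 lie above losses at W1-only peaks (11.8% and 7.46%), at the other W1 peaks (10.4% and 6.28%) and at W2-only, W6-only and W12-only peaks, and below them at D0-only peaks (6.26% and 10.7%).

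The strongest members that gained a culture domain with WT SOX9 were the *Diaph3* and *Adh6a* peaks, a peak on chromosome X between genes with *Mamld1* as the closest coding gene (fold 8.47), and 2 peaks in introns of *Zbtb20* (7.70 each). The *Diaph3*, *Adh6a* and first *Zbtb20* peaks were in the WT SOX9 list and in no other culture list. The peak on chromosome X was also in the lists of both truncated forms, and the second *Zbtb20* peak in that of ΔTA-SOX9.

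Short words known for families of transcription factors were counted within 100 bases of the summits, on both strands. A SOX word was found in 1784 member windows, or 26.4% (25.3 to 27.5%), and in 22.5% of all W1 windows. An AP1 word was found in 436, or 6.45% (5.88 to 7.06%), beside 5.40% of all W1 windows. Against the other W1 peaks these were 4.92 points more (3.77 to 6.10) for SOX and 1.33 points more (0.702 to 1.99) for AP1. Member windows were also richer in A and T, with a mean GC content of 47.2% against 52.3%, and held 2.54 CpG on average against 6.44.

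At this width the summits did not stand out from their own surroundings in either word. In equal windows 1000 bp to both sides, with a GC content of 45.0%, the SOX word was in 25.7%, so that the summits had 0.725 points more (-0.551 to 2.01), and the AP1 word was in 6.26%, a difference of 0.192 points (-0.509 to 0.920). In windows reaching 200 bases to each side the summits exceeded their sides by 1.59 points for SOX (0.137 to 3.05) and 1.36 points for AP1 (0.393 to 2.35). Read backwards, which keeps the base composition, the SOX words were in 22.2% and the AP1 word in 5.40% of the member windows. For AP1 the difference from the other W1 peaks was within 0.208 points of 0 in each of the lower 3 score groups, and the intervals of all 4 groups included 0. For SOX it was 1.92, 3.02 and 5.62 points there, each interval above 0. Among distal peaks the SOX word was in 27.6% against 25.5%, a smaller difference of 2.11 points (0.729 to 3.50). Within 2500 bp of a start site the difference was 4.09 points (1.80 to 6.53).

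Against the peaks of other single times, SOX words were more frequent at W1-only than at D0-only summits by 2.94 points (1.44 to 4.43). From W2-only summits, at 27.8%, the members differed by -1.43 points (-3.10 to 0.227). AP1 words did not differ beyond counting error from any other single time, the widest interval being -1.41 to 0.462 points against W2-only peaks. Both words occurred in 117 member windows (1.73%) and in 1.14% of the other W1 windows.

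Other words showed more at the summit than beside it. The E-box word CAGCTG, bound by basic helix-loop-helix factors, was in 12.3% of member windows (background 11.0%) and in 9.41% of the sides, a difference of 2.90 points (1.99 to 3.84). The NFI word TTGGCA, a part of the site of nuclear factor I, which is active in hair follicle stem cells, was in 12.1% (background 10.3%) and in 9.98% of the sides, a difference of 2.12 points (1.21 to 3.06). Neither was particular to W1: over their own sides, D0-only summits had 1.52 points more of the E-box word and 1.85 points more of the NFI word, and W2-only summits 1.87 and 3.37 points more. The GATA words AGATAA or TGATAA were in 17.7% (background 13.9%), fewer than in the sides by 2.45 points (1.30 to 3.57). The RUNX word TGTGGT was in 15.0% (background 13.1%), and in 15.1% of the sides. A further 3 words exceeded the sides: KLF (GGGNGTG) by 1.48 points (0.523 to 2.46), TCF/LEF (CTTTGA) by 1.04 points (0.0174 to 2.08) and ETS (CCGGAA) by 0.784 points (0.357 to 1.24). For the words of TEAD (GGAATG), C/EBP (TTGCNNAA), NF-kB (GGANTTTCC), GRHL (AACNGGTT), STAT (TTCNNNGAA), CREB (TGACGTCA), NFY (GCCAAT), the GC-box (GGGCGG) and p63 the interval of that difference included 0. Words rich in G and C, which are common at start sites, were fewer than at the other W1 peaks, with the GC-box in 3.34% against 13.3% and the ETS word in 2.60% against 7.04%. The GATA difference from the sides was also negative at D0-only (-2.61 points), W2-only (-1.44) and other W1 summits (-4.85). The KLF word exceeded the sides at D0-only (1.33 points) and other W1 summits (2.33) too. At W2-only summits the KLF interval included 0 (-0.170 to 2.16).

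By gene, W1-only peaks were spread thinly. Counting from 10 kb before to 10 kb after each gene, 3876 of 21938 protein-coding genes had at least 1 member, which is 17.7%, and 448 genes (2.04%) had 3 or more. The largest numbers were found at very long annotated genes, *Fgfr2*, a fibroblast growth factor receptor gene, with 35 members among 134 W1 peaks over 2981 kb and *Gm20388* with 27 among 143 over 4455 kb, both of which span many other genes. *Zbtb16*, which encodes the repressor PLZF, had 13 members among 23 W1 peaks, beside 12 peaks at D0 and at W2, 3 at W6 and 2 in the grafts. *Zbtb20* had 13 among 33, beside 7 peaks at D0 and 23 at W2.

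The other genes with most members were *Antxr1*, a receptor for extracellular matrix (12 among 33 W1 peaks), *Sema5a*, a semaphorin (11 among 17), *Med13l*, a subunit of the Mediator kinase module (11 among 18), *Foxn3*, a forkhead repressor (11 among 52), *Psd3*, an exchange factor of ARF GTPases (10 among 19), and *Hdac4*, a histone deacetylase (10 among 20). Their median folds lay between 3.68 and 4.62, so that the genes with many members had them at the usual low strength. All 8 genes other than *Fgfr2* and *Gm20388* also had peaks in each of the other 4 lists.

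At 231 genes (1.05%), W1-only peaks were the sole H3K27ac of any list. Of these, 5 had 2 members each: *Plxnc1*, a semaphorin receptor, *Pcdh9*, a protocadherin, *Grm4*, a glutamate receptor, *Prdm12* and *Zfp385b*. The median folds at these 5 genes ran from 3.27 to 4.23. Among the gene lists, 3 genes were of this kind, with 1 member each: *Lef1*, the Wnt effector of hair follicles, *Krt24*, a keratin of hair follicle stem cells, and *Dct*, a melanocyte gene. Each of these 3 members had a fold of 3.85, the median of the W1-only peaks, most of which were called from few reads.

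Gene lists for the tissue and the pathways were described by the share of the W1 peaks at their genes that were W1-only, beside 20.8% over the whole list, and beside the share that the score groups of those same peaks would give. At hair follicle stem cell and outer root sheath markers it was 17 of 61 peaks, or 27.9% (17.1 to 40.8%), with 24.6% from the scores. At hair follicle stem cell transcription factors it was 20 of 113, or 17.7% (11.2 to 26.0%), and at RUNX genes 5 of 30 (16.7%). None of these stood clear of the whole list.

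Epidermal lists had shares below that of the whole list. At epidermal transcription factors 10 of 96 W1 peaks were W1-only, or 10.4% (5.11 to 18.3%), with 17.9% from the scores, and at basal keratins and basement membrane genes 9 of 84, or 10.7% (5.02 to 19.4%), with 19.7% from the scores. Barrier genes had 1 of 26 (0.0973 to 19.6%), with 21.8% from the scores, and stress keratins and cytokines 1 of 25 (0.101 to 20.4%), with 19.8%. AP1 and immediate early genes had 5 of 69, or 7.25% (2.39 to 16.1%), with 13.0% from the scores, and the EGF receptor family 3 of 41 (7.32%, 1.54 to 19.9%), with 19.3%. The intervals of these 6 lists lay below 20.8%, but the share from the scores lay inside the interval for 4 of them and above it for the basal and the barrier genes alone. At housekeeping genes 0 of 15 peaks were W1-only (0 to 21.8%), where only 6.67% of the W1 peaks were distal.

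Signalling lists ran with the whole: 16 of 55 for the Hedgehog pathway (29.1%), 10 of 37 for Notch (13.8 to 44.1%), 15 of 64 for TGF-beta and BMP (23.4%) and 12 of 63 for Wnt (19.0%). Chromatin partners of SOX9 had 10 of 41 (24.4%) and cell cycle genes 6 of 26 (23.1%). Markers of other cell types had few W1 peaks, of which 3 of 5 were W1-only for fibroblasts, 5 of 17 for endothelium, 1 of 3 for immune cells, 1 of 3 for melanocytes, 0 of 1 for adipocytes and 3 of 4 for muscle. Together these were the 13 of 33 given above, or 39.4%, with an interval above 20.8%. The shares from the scores were 48.4% for fibroblasts, 25.5% for endothelium, 34.9% for immune cells and 9.10% for melanocytes. For adipocytes and muscle they were 48.4% and 37.5%. Each lay inside the interval of its list, so these lists did not stand clear of the shares from their scores.

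**Figure D5:**
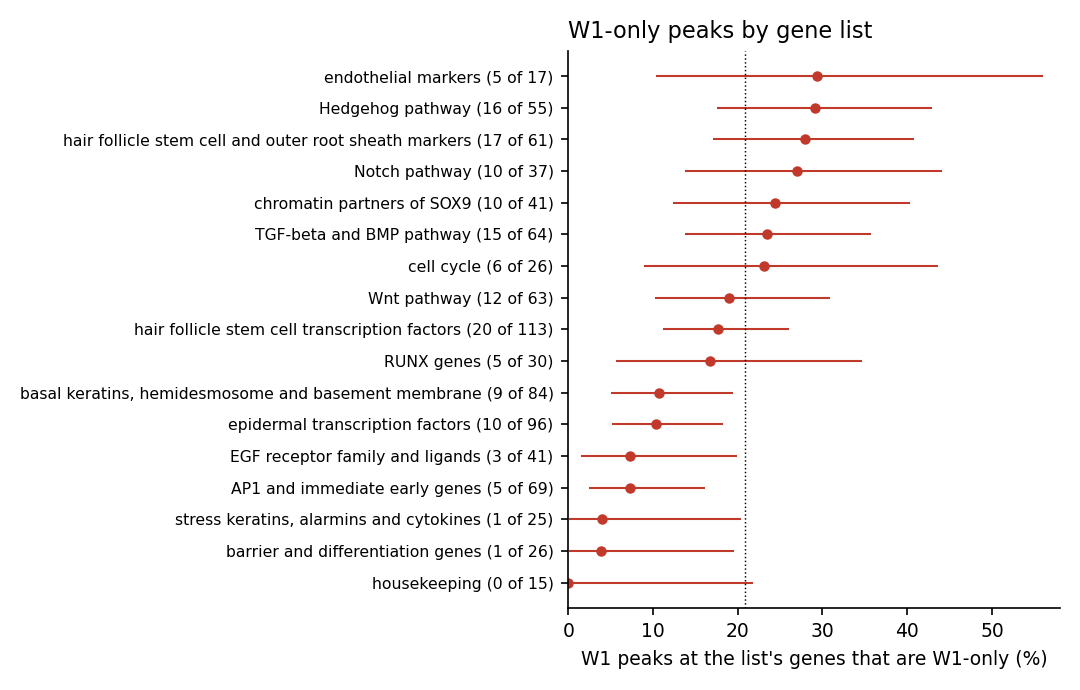
Share of the W1 H3K27ac peaks at the genes of a list that were W1-only (x axis, %), with 95% exact intervals, for lists with 10 or more W1 peaks (y axis, members of all W1 peaks in brackets). The dotted line is the share in the whole W1 list, 20.8%. Epidermal transcription factors (10.4%) and AP1 genes (7.25%) lie below it, and the intervals of the Hedgehog, Notch and hair follicle lists include it.

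Of the list genes with 3 or more members, *Lgr6*, *Tgfb2* and *Notch2* (3 of 5) had over 50% of their W1 peaks W1-only. *Lgr6*, which encodes an R-spondin receptor of stem cells above the hair bulge and in the epidermis, had 7 members among 9 W1 peaks, with no peak at D0, 2 at W2, 4 at W6 and 2 in the grafts. Its members had folds from 3.08 to 6.16, of which the highest lay 247 bp from the start site, at chr1:135103775-135105029. H3K4me1 was called at all 5 times at 6 of the 7, and at chr1:135024621-135024932 from W1 to W6 without D0 or W12. This last region and the member at chr1:135058911-135059552 were in a culture domain with WT SOX9 and in no other culture list. The member with the highest fold was in the culture lists without DOX and of both truncated forms, and not in that of WT SOX9. In all, 5 of the 7 were in a culture list and 4 in that of WT SOX9.

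*Tgfb2*, a ligand of the TGF-beta pathway, had 6 members among 7 W1 peaks, beside 3 peaks at D0, none at W2 or W6 and 2 in the grafts. The members had folds of 3.06 to 4.62, 5 of the 6 were intronic, and 5 lay in a culture domain with WT SOX9. The widest, at chr1:186640680-186641874, was in the culture list of WT SOX9 and in no other. The other members in the WT SOX9 list were also in the culture list without DOX. Apart from the *Lgr6* member with a fold of 6.16, all members at both genes lay below the median fold of the other W1 peaks (5.39). At both genes the members lay on chromatin that mostly had H3K4me1 from D0 on.

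In all, 15 list genes had 3 or more members. Of chromatin partners, *Arid1b*, a subunit of the BAF remodeller, had 8 among 19 W1 peaks, all intronic and with folds up to 4.62. Of hair follicle transcription factors, *Nfib* had 6 among 27, up to a fold of 6.93, and *Nfatc1*, *Tcf7l2* and the Hedgehog effector *Gli2* had 3 each. Of stem cell markers, *Lrig1*, a brake on EGF receptors, had 5 among 27 and P-cadherin (*Cdh3*) 3 among 9. Of signalling genes, the Hedgehog co-receptor *Cdon* had 4 among 9, one of them at chr9:35493336-35494063 with H3K4me1 from W1 to W6 and a culture domain with WT SOX9 alone, and *Dkk3*, *Jag1* and *Notch2* had 3 each. Of epidermal factors, *Trp63*, the gene of p63, had 4 among 21 and *Grhl1* 3 among 12.

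Of the genes the study followed, *Runx1* had 2 members among 16 W1 peaks, one with a fold of 6.16 at 13997 bp from a start site. *Gata3* had 1 among 5, in an intron (fold 5.15), and *Krt5* had 1 among 7, between genes (4.62). *Ctnnb1* had 7 W1 peaks and *Sox9* had 1, none of them W1-only, and *Vim* had no W1 peak.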

How the data were processed

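MINT-ChIP for H3K27ac, H3K4me1 and total H3 in sorted EpdSCs (12 libraries each) and for H3K4me1 in cultured EpdSCs (2 libraries) was grouped by the labels. Per the study's methods, the authors split reads by barcode, trimmed them with Skewer, aligned them to mm10 with Bowtie2 (2.2.9 in the submitters' processing notes), removed duplicates with Picard, merged replicates with SAMtools (1.9) and called H3K27ac peaks with MACS2 (2.1.1) and H3K4me1 domains with epic2. The notes name SICER 0.0.36 instead. Caller settings and controls are not given in the sources used here, nor is how the culture domains were called. The deposited H3K4me1 lists of skin give a p-value per domain. The deposited H3K27ac and culture lists hold a score in whole numbers, the fold enrichment as a ratio, and p and q as −log10. No q of the W1 list exceeded 0.0498. The authors' columns were used only to describe and rank.

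From these 14 lists, overlaps of at least 1 bp, gaps and shares were computed on 21 chromosomes with Python 3.11.15, pandas, SciPy and pysam. Shares carry exact 95% Clopper-Pearson intervals and differences Newcombe intervals. Distances went to 77221 start sites of the GENCODE M21 basic set, and sequence came from RefSeq GRCm38.p6, on which no interval ran past a chromosome end. A fold was read as a pileup when within 0.01 of a whole number of reads. The 4 score groups split ties by list order. Overlap, distance and word functions were tested on simulated data. Reads per library were not used here, total H3 was not analysed, and 14 barcode files were not used. Members, the 22 gene lists (235 symbols, of which 1 was not found) and the 18 words were chosen with earlier results of these data known. Named regions were the 10 members with the highest score, the 5 highest of each class described, the 10 genes with most members, list genes with at least 3 members and 7 genes of the study. Genes at which W1-only peaks were the sole H3K27ac, and the 7 printed windows, were named after their values were seen. Gains over peaks able to gain, and comparisons within distal peaks, were added after the data were seen. Alternatives changed the overlap, the peaks and lists used, the limits of distance, the windows and the flanks of genes.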

Additional observations from a re-analysis of the deposited data

How the results depend on the processing

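Of 73 alternatives 39 moved no value by more than its interval or a count by over 1.5 times, and 34 moved one. No paired analysis was possible because each deposited list pools its replicates, and for the same reason no replicate could be left out. The number of W1-only peaks (6759) fell to 4351 when no other peak was allowed within 1000 bp and to 250 among W1 peaks above the median score, whose median fold was 6.16 and which touched 202 genes. Genes with a member numbered 7542 with 50 kb on both sides. The H3K4me1 share at D0 was 88.1% when an overlap needed 50% of the shorter interval, 80.5% with no peak within 1000 bp, 90.7% for q at most 0.01, 93.6% above the median score, 87.5% without the W6 list and 84.9% when 50% of the peak had to be covered. At W1 these were 89.2%, 81.5%, 92.3%, 98.0%, 88.7% and 86.4%, and in culture without DOX 46.1%, 42.0%, 47.9%, 52.0%, 46.4% and 35.9%. Above the median score, with 250 members, the W1 share was 2.61 points over that of the other W1 peaks. The interval included 0 (-0.00528 to 3.82), so that no direction could be given there. The distal share was 80.3% with the 50% overlap, 84.9% with no peak within 1000 bp, 79.8% without the W6 list, and 90.8% or 55.2% with limits of 1000 or 10000 bp. The AP1 and SOX words were in 5.60% and 29.2% of windows above the median score, in 3.05% and 14.2% with 50 bases to each side and in 13.4% and 46.5% with 200. The causes were not tested. The lists' unequal depths and the few reads behind most members limit all counts.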
